A study of Homo sapiens with 6 samples.

Results

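Extracellular matrix genes and their cell surface receptors were examined in MDA-MB-231 cells, an established human line of triple-negative breast cancer (TNBC), after BRL-50481. The study used BRL-50481, an inhibitor of the phosphodiesterase 7 (PDE7) family, against phosphodiesterase 7A (PDE7A). No cells with a genetic loss of PDE7A are among these samples. The members were chosen by gene symbol, with earlier results of these data known. They were the collagens, the laminin chains, the integrin α and β subunits and the named genes FN1, SPARC, THBS1, HSPG2, AGRN and DAG1. They came to 63 of the 15651 genes in the deposited table, with 45 matrix genes (30 collagens, 10 laminin chains and 5 others) and 18 receptor genes (9 integrin α subunits, 8 integrin β subunits and DAG1). NID1 and NID2, which the choice also named, were not analysed here. RNA was sequenced from 3 libraries of cells given the solvent DMSO and 3 libraries of cells given BRL-50481. The treatment protocol in the labels and the study's methods give 50 μM of BRL-50481 for 72 h, whereas a treatment tag among those labels reads 5 μM and 48 h. The series text calls the libraries biological replicates, and all come from this 1 cell line cultured alone. The comparison asks which matrix and receptor genes differ under the inhibitor, in cells whose Matrigel invasion and migration the study also measured.

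Collagens are secreted as trimers of α chains that wind into a helix. The fibrillar types (I, II, III, V and XI) form the rope-like fibers of connective tissue, type IV forms the network of basement membranes, and the fibril-associated types decorate the fibers. Laminins are cross-shaped trimers of 1 α, 1 β and 1 γ chain and build the cell-facing sheet of the basement membrane. Integrins are dimers of 1 α and 1 β subunit that span the plasma membrane, bind these proteins outside the cell and connect to the actin cytoskeleton inside it. In epithelial cells the α6β4 integrin sits in hemidesmosomes, where it holds laminin of the epithelial basement membrane and joins to keratin filaments, while the integrins that contain β1 make up most of the collagen, laminin and fibronectin receptors.

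The deposited values are normalized counts, that is reads per gene divided by a size factor of the library, and they rest on 30750573 to 33446984 reads per library. Of the markers listed for the line as present, VIM was at 56075 to 60934 normalized counts in DMSO, CD44 at 30982 to 31805, KRT8 at 5772 to 7112 and KRT18 at 13838 to 16072. VIM, CD44 and KRT8 were higher in BRL-50481 and KRT18 was lower (log2FC −0.31). Of those listed as low, ESR1 was not analysed here, PGR (progesterone receptor) had 0 to 2.98 normalized counts in DMSO, and ERBB2 was not low, at 1606 to 1756 in DMSO and 1864 to 1979 after BRL-50481. CDH1 (E-cadherin) was low, at 31.7 to 48.6 in DMSO against 93.1 to 105 in BRL-50481. Markers of other cell types were listed as well. DCN, COL3A1 and FAP were not analysed here, and the 4 others of 7 (LUM, PDGFRA, PDGFRB and THY1) summed to 272 to 278 normalized counts in DMSO against 313 to 382 in BRL-50481, of which PDGFRB made up 261 to 270 and 301 to 363. The fibroblast markers LUM and THY1 stayed at or under 16.5 in every library. Endothelial markers (3 of 4, without VWF) summed to 759 to 932 in DMSO against 739 to 873 in BRL-50481, with PECAM1 (log2FC 0.48) and CDH5 (at most 15.1 normalized counts) called higher and KDR called lower (log2FC −0.60). The smooth muscle marker CNN1 (1 of 3) had 10.9 to 21.6 and 1.01 to 3.02. The part of such cells in the results was not tested. PDE7A itself had 406 ± 2.06 normalized counts in DMSO against 298 ± 40.6 in BRL-50481 (SD, n = 3 per group), a measure of its mRNA and not of its activity. DMSO replicate 1 lay farthest from its group, with a residual SD of 0.141 on the log2 scale against 0.0791 to 0.119 in the other libraries. It was the highest of the 3 DMSO libraries in 22 of the 42 members whose mean was 100 normalized counts or more and the lowest in 12. Over those 42 genes, its difference from the other DMSO libraries went with transcript length (Spearman's rho 0.604) and inversely with GC content (rho −0.744), a description over genes that share the same libraries. The sets and some single genes are therefore given below also without this library or with a correction for transcript length and GC content. Values are uncorrected unless stated. In bulk RNA, more RNA per cell and more cells that express a gene cannot be told apart.

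Most matrix and receptor genes were more abundant after BRL-50481. Of the 63 members, 41 were higher and 3 were lower at an adjusted p-value under 0.05 in limma, a linear model fitted to log2(normalized count + 1) of all 15246 genes that passed a filter on low values, with Benjamini-Hochberg adjustment over all of them. Among all genes tested, 28.9% were higher and 29.8% lower (58.7% in either direction). Counts by role below stand against these same shares. The members' median log2 fold change (log2FC, BRL-50481 over DMSO) was 0.52, against 0.015 over all genes tested. Of the called genes, 14 members had a log2FC over 1, where 5.06% of all genes were called with such a change, and no member was called lower by that much, where 2.98% of all genes were. COL24A1 and ITGB6 also had a log2FC over 1 but did not pass the test. Every BRL-50481 library lay above every DMSO library in 42 members and below in 3, against 31.9% and 32.3% of all genes. For any single gene such a separation gives p = 0.1 in a two-sided exact permutation test, the smallest p that 3 libraries against 3 allow. All 63 members passed the filter. COL24A1, COL9A3, ITGB6 and ITGB7 reached its minimum in all 3 BRL-50481 libraries but in fewer than 3 DMSO libraries. COL20A1 and COL21A1 also needed BRL-50481 libraries to pass. Of these genes only COL9A3 was called, and it counts among the 41 higher members. COL24A1, COL9A3 and ITGB6 count among the 42 members with every BRL-50481 library above. Of the 42 members whose mean was 100 normalized counts or more, 30 were higher and 2 lower, against 30.8% and 36.2% of the genes at that level. Their median was 0.46, and 6 of them were called with a log2FC over 1, against 2.21%.

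**Figure D1:**
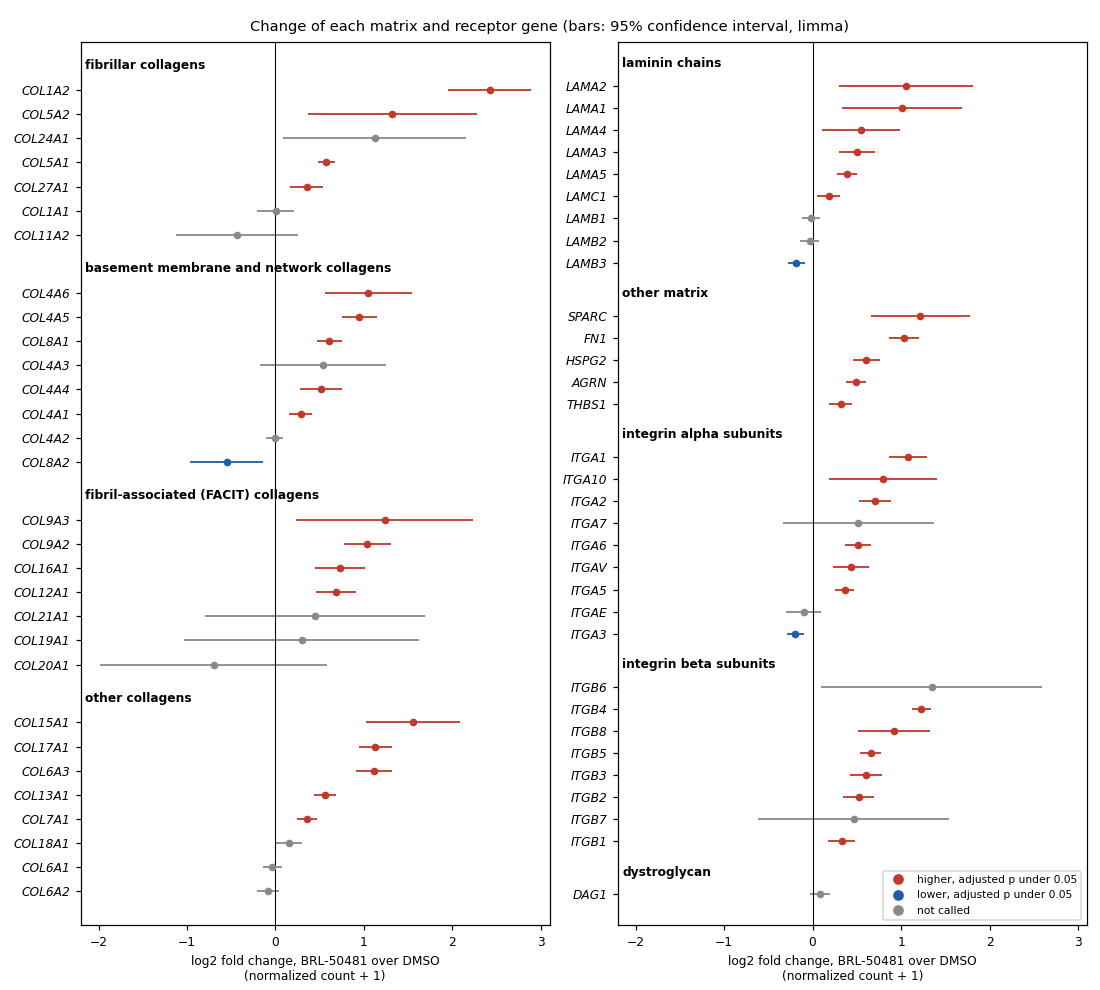
Log2 fold change of BRL-50481 over DMSO for 62 of the 63 genes, grouped by role, on log2(normalized count + 1), with 95% confidence intervals from limma (3 libraries per group). Red points are higher and blue points lower at an adjusted p-value under 0.05, grey points are not called, and the 41 red points lie in every role but dystroglycan while the 3 blue points are COL8A2, LAMB3 and ITGA3.

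**Figure D2:**
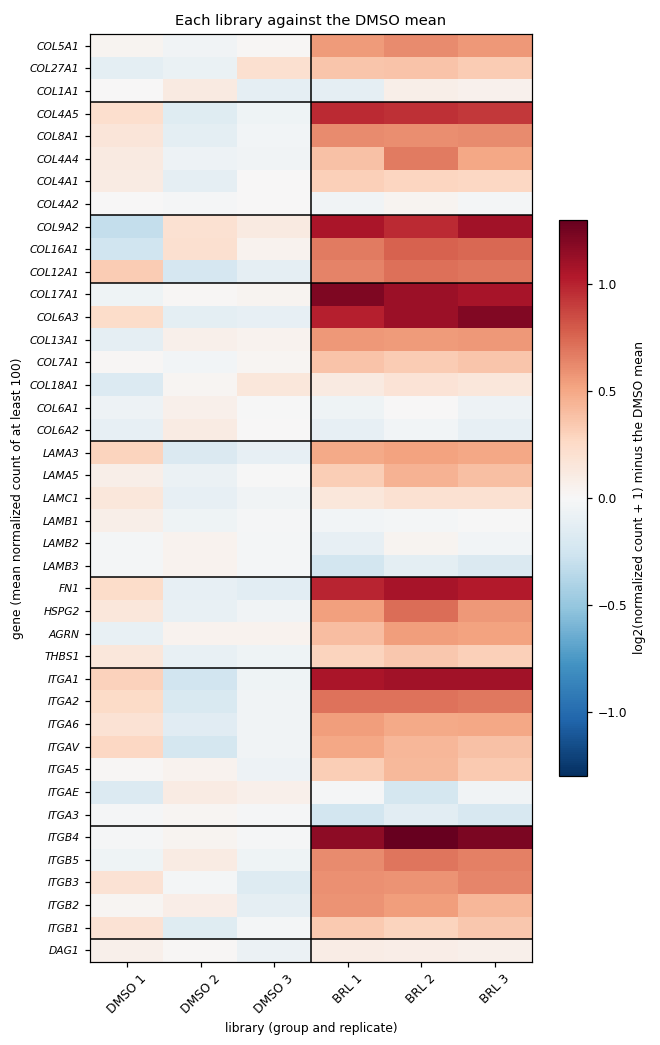
Log2(normalized count + 1) of each library minus the mean of the 3 DMSO libraries, for 41 of the 42 genes whose mean was 100 normalized counts or more, ordered by role. The 3 BRL-50481 columns are red for most genes and resemble each other, and the first DMSO column departs from the other DMSO columns in COL12A1, LAMA3, ITGA1 and ITGAV.

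Fibrillar collagens gave 4 higher and 0 lower of 7 genes, with a median log2FC of 0.58. COL5A1, the main chain of collagen V, which starts and thins collagen fibrils, had the highest level of them per kilobase of transcript. It went from 5334, 5056 and 5248 normalized counts in DMSO to 7659, 7971 and 7693 in BRL-50481 (log2FC 0.58, standard error (SE) 0.0461, limma adjusted p = 3.37e-07). All treated libraries stood above all controls by a wide margin compared with their scatter. COL27A1, a fibrillar chain of cartilage, went from 677, 695 and 856 to 945, 958 and 929, a log2FC of 0.35 (SE 0.0865, adjusted p = 0.0033).

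The 2 chains of collagen I parted. COL1A2, on chromosome 7 of hg38 (94394895 to 94431227), had 14.9, 22.5 and 20.4 normalized counts in DMSO against 113, 118 and 90.1 in BRL-50481. This 5.55-fold difference in mean (log2FC 2.42, SE 0.217, adjusted p = 9.04e-07) was the largest among the members, although at a low level. COL1A1 (chromosome 17, 50184101 to 50201632) had 337, 363 and 309.5 normalized counts in DMSO against 309, 355 and 349.9 in BRL-50481, and the groups overlapped. The 95% interval of its log2FC ran from −0.21 to 0.22. Collagen I contains more α1 than α2 chain. Per kilobase of transcript, the ratio of COL1A1 to COL1A2 was 19.4, 13.8 and 12.99 in the DMSO libraries and 2.35, 2.58 and 3.33 in the BRL-50481 libraries, a difference of −2.48 on the log2 scale (exact permutation test, two-sided, p = 0.1, which is the smallest possible). A ratio within a library does not depend on how libraries are scaled to each other. It can still carry a trend of that library on transcript length or GC content where the 2 transcripts differ in these. The ratios given here and below were not corrected for such a trend. COL5A2, the partner chain of COL5A1, was called higher at a very low level, from 24.8, 11.8 and 5.11 to 35.2, 23.2 and 34.9, and the groups overlapped. It lost the call without DMSO replicate 3, BRL-50481 replicate 1 or BRL-50481 replicate 3 (adjusted p = 0.0767, 0.0835 and 0.0666 in limma). COL24A1 and COL11A2, with means of at most 20.9 in either group, were not called, although COL24A1 was called higher without DMSO replicate 1 or DMSO replicate 3 (adjusted p = 0.0142 and 0.0372 in limma).

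Basement membrane and network collagens gave 5 higher and 1 lower of 8 genes. Collagen IV is encoded by 6 genes that lie in 3 head-to-head pairs, each pair transcribed away from a short shared stretch. The starts of COL4A1 and COL4A2 on chromosome 13 are 126 bases apart in RefSeq, those of COL4A5 and COL4A6 on chromosome X 379 bases, and those of COL4A3 and COL4A4 on chromosome 2 418 bases. Of the first pair, only 1 gene was called. COL4A1 had 2357, 2023 and 2201 normalized counts in DMSO against 2713, 2664 and 2631 in BRL-50481, a log2FC of 0.29 (SE 0.0609, adjusted p = 0.00129). COL4A2, the more abundant chain, had 8944, 8865 and 8978 against 8639.5, 9175 and 8799, with an interval from −0.11 to 0.09. COL4A2 was called lower only after the length and GC correction without DMSO replicate 1 (log2FC −0.06, adjusted p = 0.0464 in limma). Per kilobase the ratio of COL4A2 to COL4A1 was 3.85, 4.45 and 4.14 in DMSO and 3.23, 3.49 and 3.39 in BRL-50481 (exact permutation p = 0.1, the smallest possible). The common trimer of collagen IV holds more α1 than α2 chain.

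The COL4A5 and COL4A6 pair moved together. COL4A5, mutated in Alport syndrome, went from 486, 375 and 401 to 821, 811 and 795 normalized counts (log2FC 0.95, SE 0.0933, adjusted p = 2.02e-06). Its neighbor COL4A6 went from 28.8, 39.2 and 22.5 to 61.4, 59.4 and 64.9 (log2FC 1.05, SE 0.227, adjusted p = 0.00144). Both genes were higher in every treated library than in any control, and the ratio of COL4A5 to COL4A6 per kilobase averaged 15.1 ± 4.64 in DMSO and 13.4 ± 0.764 after BRL-50481 (SD, n = 3 each, exact permutation p = 0.8). In the remaining pair COL4A4 was higher, from 213, 187 and 190.0 to 256, 314 and 279 (log2FC 0.52, adjusted p = 0.00128 in limma), while COL4A3 had 14.7 to 29.8 in DMSO against 24.2 to 44.6 in BRL-50481 and was not called (log2FC 0.54, SE 0.33), except without DMSO replicate 1 (log2FC 0.81, adjusted p = 0.0387 in limma). Stretches of these pairs are shown here because the first lies between genes of which 1 was called and the second between genes that were both called. The first is the whole stretch between COL4A1 and COL4A2, and the second the 250 bases before the start of COL4A5, both 5′ to 3′ on the strand of COL4A2 and COL4A5, from RefSeq on GRCh38.p14 (hg38). Capitals mark CCAAT boxes (CCAAT) and GC boxes (GGGCGG) on either strand, none of which overlapped another.
COL4A1-COL4A2, chr13:110307158-110307283, plus strand: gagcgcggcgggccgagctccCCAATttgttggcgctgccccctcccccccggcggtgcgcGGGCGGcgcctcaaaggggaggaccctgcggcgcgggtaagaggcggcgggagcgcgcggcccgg
COL4A5-COL4A6, chrX:108439588-108439837, plus strand: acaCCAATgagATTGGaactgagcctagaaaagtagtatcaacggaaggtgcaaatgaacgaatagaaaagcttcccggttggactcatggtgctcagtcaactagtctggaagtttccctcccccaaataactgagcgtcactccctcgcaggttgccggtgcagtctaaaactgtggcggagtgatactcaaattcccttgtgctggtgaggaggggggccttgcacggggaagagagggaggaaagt
The stretch between COL4A1 and COL4A2 held 1 CCAAT box and 1 GC box. The stretch before COL4A5 held 2 CCAAT boxes in opposite orientation and no GC box.

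COL8A1 and COL8A2 encode the chains of the short network collagen VIII and were called in opposite directions, COL8A2 at a low level. COL8A1 had 2042, 1682 and 1795 normalized counts in DMSO against 2801, 2795 and 2807 in BRL-50481 (log2FC 0.61, SE 0.0674, adjusted p = 5.46e-06). COL8A2 had 61.5, 80.3 and 70.5 against 50.3, 54.4 and 39.7 and was called lower (log2FC −0.55, SE 0.191, adjusted p = 0.0244 in limma). That call rests on few reads. Without DMSO replicate 2, DMSO replicate 3 or BRL-50481 replicate 3 it did not pass, with adjusted p-values in limma of 0.0885, 0.0542 and 0.103. Nor did COL8A2 pass in DESeq2 (adjusted p = 0.051).

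Fibril-associated collagens gave 4 higher and 0 lower of 7 genes. COL12A1, whose long chain bridges collagen I fibers, had the highest level per kilobase, with 5579, 3807 and 4095 normalized counts in DMSO against 6935, 7292 and 7193 in BRL-50481 (log2FC 0.69, SE 0.104, adjusted p = 8.59e-05). DMSO replicate 1 was the highest control, and without it the log2FC was 0.85. COL9A2, a chain of cartilage collagen IX, went from 201, 288 and 272 to 526, 492 and 535 (log2FC 1.04, SE 0.122, adjusted p = 9.1e-06). COL16A1 went from 110.1, 153 and 136 to 210.4, 225 and 222 (log2FC 0.73, adjusted p = 0.000375 in limma). COL9A3 was called higher with at most 14.5 normalized counts in any library, and 4 of the 6 single libraries (all but DMSO replicate 3 and BRL-50481 replicate 2) ended that call when left out (adjusted p = 0.0547 to 0.148 in limma). The other 3, COL19A1, COL20A1 and COL21A1, stayed at or under 15.1 and were not called.

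Among the other collagens, 5 of 8 were higher and none was lower, and here too chains of 1 molecule parted. COL6A1 and COL6A2, which with an α3 chain form the beaded filaments of collagen VI, were not called. COL6A1 had 5624 to 6202 normalized counts in DMSO against 5657 to 5928 in BRL-50481 (interval of the log2FC −0.15 to 0.07), and COL6A2 had 4871 to 5634 and 4863 to 5105 (−0.21 to 0.04). Without DMSO replicate 1 COL6A2 was called lower (log2FC −0.14, adjusted p = 0.00401 in limma). COL6A3 was higher, from 769, 596 and 607 to 1317, 1416 and 1502 (log2FC 1.11, SE 0.0942, adjusted p = 5.6e-07). Per kilobase, COL6A1 exceeded COL6A3 18.3-fold to 26.1-fold in the DMSO libraries and 9.43-fold to 10.8-fold in the BRL-50481 libraries (exact permutation p = 0.1, the smallest possible). The ratio of COL6A1 to COL6A2 lay between 0.902 and 0.946 in DMSO and between 0.951 and 0.959 in BRL-50481.

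Both transmembrane collagens of the set were higher. COL17A1, the hemidesmosome collagen that binds the α6β4 integrin, went from 234, 247 and 250.3 normalized counts to 567, 527 and 513 (log2FC 1.13, SE 0.0859, adjusted p = 2.16e-07). COL13A1, found at cell adhesion sites, went from 3589.8, 4089.7 and 4032 to 5746, 5706 and 5781 (log2FC 0.56, SE 0.0555, adjusted p = 2.2e-06). COL7A1, which forms the anchoring fibrils under the epithelial basement membrane, went from 1524, 1468 and 1531 to 1950.0, 1902 and 1936 (log2FC 0.36, SE 0.0538, adjusted p = 8.6e-05). The groups were apart in all 3 genes. Of the related pair COL15A1 and COL18A1, whose C-terminal fragments are restin and endostatin, COL15A1 was higher at a low level, from 20.8, 24.5 and 17.4 to 60.4, 49.4 and 82.4 (log2FC 1.55, SE 0.247). COL18A1, at 3852, 4440.4 and 4823 in DMSO and 4732, 4907 and 4838 in BRL-50481, was not called (log2FC 0.15, adjusted p = 0.0833 in limma), but it was without DMSO replicate 3 (log2FC 0.22) and after correction for transcript length and GC content (log2FC 0.18).

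Laminin chains gave 6 higher and 1 lower of 10 genes, and their median of 0.28 was the lowest of the roles with more than 1 gene. All 5 α chains were called higher. LAMA3 went from 3020.3, 2183 and 2311 normalized counts to 3483, 3555 and 3509.8 (log2FC 0.50, SE 0.0932, adjusted p = 0.000443). LAMA5, the α chain of most adult basement membranes, went from 11907, 10713 and 11186 to 14057, 15453 and 14748 (log2FC 0.39, SE 0.0527, adjusted p = 3.3e-05). LAMA1, LAMA2 and LAMA4 had means between 14.3 and 54.6 in either group. None of these 3 calls held without BRL-50481 replicate 3, where the adjusted p-values in limma were 0.0555, 0.0568 and 0.0996. LAMA1 also lost its call without DMSO replicate 3 (0.051), LAMA2 without DMSO replicate 1 (0.0671) or BRL-50481 replicate 2 (0.0933), and LAMA4 without DMSO replicate 2 (0.102), DMSO replicate 3 (0.0747) or BRL-50481 replicate 1 (0.113). LAMA2 and LAMA4 were not called in limma after the length and GC correction (0.0519 and 0.115) or with quantile normalization (0.0550 and 0.140). Nor was LAMA2 in limma without a trend (0.0507) or LAMA4 in DESeq2 (0.0851).

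LAMB3, LAMB1, LAMB2 and LAMC1 had log2FC values between −0.18 and 0.18. LAMB3, the partner of LAMA3 and the laminin mRNA with the highest level per kilobase, had 36746, 38509 and 36821 normalized counts in DMSO against 31746, 34284 and 32764 in BRL-50481, and was called lower (log2FC −0.18, SE 0.0457, adjusted p = 0.00387). All 3 treated libraries lay below the controls, but with quantile normalization the log2FC was −0.03 and was not called (adjusted p = 0.607 in limma). LAMB1 (11246 to 12337 in DMSO, 11388 to 11671 in BRL-50481) and LAMB2 (11503 to 12128 and 10904 to 11999.5) overlapped between the groups. LAMC1, the γ chain of most laminins, went from 19165, 16006 and 16787 to 19142, 19832 and 19747 and was called higher (log2FC 0.18, adjusted p = 0.0194 in limma), although DMSO replicate 1 lay among the treated libraries. LAMC1 was not called after correction for transcript length and GC content (log2FC 0.02, adjusted p = 0.506 in limma) or without DMSO replicate 2, DMSO replicate 3, BRL-50481 replicate 2 or BRL-50481 replicate 3 (adjusted p = 0.0688 to 0.0816 in limma).

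The ratio of LAMB3 to LAMA3 was lower after BRL-50481. Per kilobase of the canonical transcript, LAMB3 exceeded LAMA3 32.3-fold, 46.8-fold and 42.3-fold in the DMSO libraries and 24.2-fold, 25.6-fold and 24.8-fold in the BRL-50481 libraries (exact permutation p = 0.1, the smallest possible). LAMA3 is also transcribed in a shorter form, so the size of this ratio depends on the transcript whose length is used. LAMB1 and LAMB2, alternative β chains of the α5 laminins, stayed at a ratio of 0.934 to 1.08 in DMSO against 0.967 to 1.05 in BRL-50481.

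**Figure D3:**
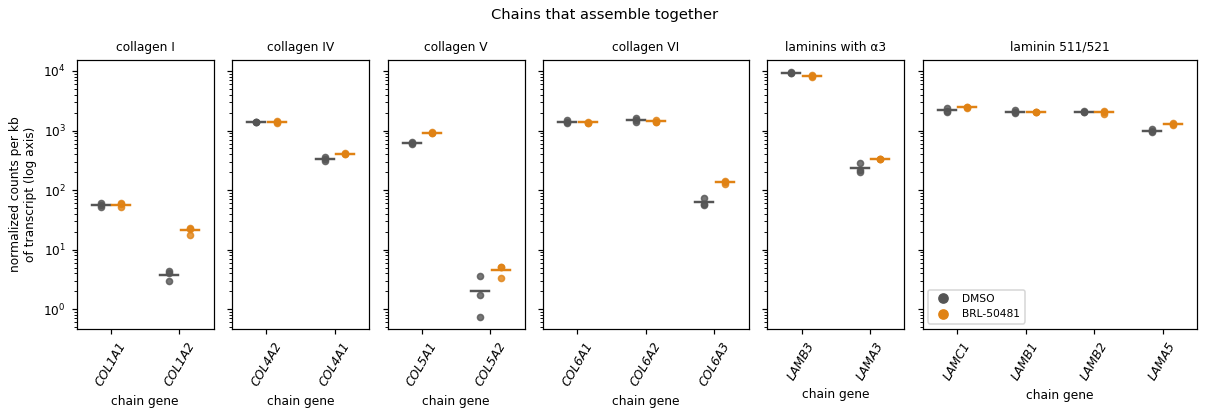
Normalized counts per kilobase of the canonical transcript (log axis) for chains that assemble with each other, in the 3 DMSO libraries (grey) and the 3 BRL-50481 libraries (orange), with horizontal bars at the group means. COL1A2, COL6A3 and LAMA3 lie below their partners in both groups and closer to them in BRL-50481, while COL1A1, COL4A2, COL6A1, COL6A2, LAMB1 and LAMB2 overlap between the groups.

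The 5 other matrix genes were all higher. FN1 encodes fibronectin, the glycoprotein that cells assemble into fibrils through the α5β1 integrin, and lies on chromosome 2 (215360440 to 215436073). It went from 17358, 13653 and 13393 normalized counts to 29285, 30786 and 29956, a 2.03-fold difference (log2FC 1.03, SE 0.0789, adjusted p = 2.31e-07). DMSO replicate 1 was the highest control and still far below each treated library. Without it the log2FC was 1.15. THBS1, thrombospondin 1, had the highest level per kilobase of these 5, with 41959, 35396 and 36330.4 against 46164, 48201 and 46962 (log2FC 0.32, SE 0.0593, adjusted p = 0.00047). The basement membrane proteoglycans HSPG2 (perlecan) and AGRN (agrin) both rose. HSPG2 went from 4889, 4101 and 4247 to 6354, 7301 and 6495 (log2FC 0.61, SE 0.0705). AGRN, whose exons overlap another annotated gene on the same strand, went from 13574, 14985 and 14887 to 19159, 21051 and 20766 (log2FC 0.49, SE 0.0535). SPARC, a collagen-binding glycoprotein, was low, at 14.9, 13.7 and 13.3 in DMSO and 31.2, 36.3 and 33.9 in BRL-50481 (log2FC 1.22, SE 0.258).

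PDE7 degrades cAMP, and the cAMP response element (TGACGTCA) is the site that the cAMP-regulated factor CREB binds. Promoters from RefSeq (GRCh38.p14, 250 bases before to 50 after the start) matched 48 of the 63 members and were searched on both strands for this element, the AP-1 site (TGANTCA), the CCAAT box (CCAAT), the GC box (GGGCGG) and the TATA box (TATAAA). The cAMP response element was found in 1 member, FN1, and in 1.98% of 27305 promoters. AP-1 sites were found in 2 members, ITGA5 and LAMA3 (7.76% of all promoters), CCAAT boxes in 10 (20.8%, against 35.7%), GC boxes in 30 (62.5%, against 44.6%) and TATA boxes in 5 (10.4%, against 12.0%). The FN1 promoter is shown because it is the only 1 of these members with the element. Its 250 bases before the start are given 5′ to 3′ on the minus strand, with capitals for the cAMP response element, a CCAAT box and 6 GC boxes, some of which overlap each other.
FN1, chr2:215436069-215436318, minus strand: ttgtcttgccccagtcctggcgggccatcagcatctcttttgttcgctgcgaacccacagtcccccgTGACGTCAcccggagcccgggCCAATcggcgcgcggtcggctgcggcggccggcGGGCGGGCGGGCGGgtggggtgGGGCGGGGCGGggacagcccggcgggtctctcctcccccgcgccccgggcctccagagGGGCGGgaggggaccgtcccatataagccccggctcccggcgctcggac
The element lies 183 to 176 bases before the RefSeq start and the CCAAT box 162 to 158 bases before it. A match of letters is a description of this window, and binding was not measured.

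Integrin α subunits gave 6 higher and 1 lower of 9 genes. ITGA3, a laminin receptor subunit on chromosome 17 (50055968 to 50090481), had the highest level of the whole set per kilobase in both groups. It had 75222, 77501 and 75139 normalized counts in DMSO against 64493, 68988 and 65538 in BRL-50481, and was called lower (log2FC −0.20, SE 0.0444, adjusted p = 0.00199). Every treated library lay below every control, and the call held under each alternative processing tried. ITGA6, another laminin receptor subunit, went the opposite way, from 17363, 13796 and 14765 to 22216, 21414 and 21578 (log2FC 0.51, SE 0.0686, adjusted p = 3.01e-05). Per kilobase the ratio of ITGA3 to ITGA6 was 5.15, 6.68 and 6.05 in DMSO and 3.45, 3.83 and 3.61 in BRL-50481 (exact permutation p = 0.1, the smallest possible). ITGA7, the laminin receptor subunit of muscle, stayed under 30 normalized counts and was not called.

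All 3 collagen-binding α subunits in the table were higher. ITGA2 had 14596, 10715 and 11902 normalized counts in DMSO against 20053, 20079.7 and 19844 in BRL-50481 (log2FC 0.70, SE 0.0834, adjusted p = 1.06e-05). ITGA1 had 2504, 1715 and 1960.2 against 4259, 4322 and 4328 (log2FC 1.08, SE 0.101, adjusted p = 1.26e-06), with the reservation that its exons overlap those of PELO on the same strand. ITGA10 was called at a low level, from 48.6, 48.0 and 21.5 to 63.4, 56.4 and 76.6, and lost the call without DMSO replicate 3, BRL-50481 replicate 1 or BRL-50481 replicate 3 (adjusted p = 0.106, 0.0731 and 0.101 in limma). The subunits that recognize the sequence RGD of fibronectin and vitronectin were higher too. ITGA5 went from 11508, 11725 and 10859 to 14144, 15221 and 14405 (log2FC 0.36, SE 0.0484). ITGAV went from 6558, 4639 and 5261 to 7717, 7308 and 7066 (log2FC 0.44, SE 0.0941). ITGAE, a partner of β7 in lymphocytes, overlapped between the groups, at 597, 726 and 708 and 667, 574 and 651. It was called lower only when DMSO replicate 1 was left out, with or without the length and GC correction (log2FC −0.23 and −0.19).

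The order of the α subunits by level per kilobase was ITGA3, ITGA5, ITGA6, ITGA2, ITGAV, ITGA1, ITGAE, ITGA10 and ITGA7 in DMSO. ITGA5 and ITGA6 overlapped in DMSO, at means of 2674 and 2632 normalized counts per kilobase, and ITGA1 and ITGAE overlapped as well, at 192 and 178. In BRL-50481, ITGA6 (3737) stood above ITGA5 (3433) and ITGA1 (401) above ITGAE (166).

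Integrin β subunits gave 6 higher and 0 lower of 8 genes, with a median log2FC of 0.63. ITGB4, the partner of ITGA6 in hemidesmosomes, on chromosome 17 (75721328 to 75757818), had the largest change among members whose mean was 100 normalized counts or more. It went from 4109, 4272 and 4103 normalized counts to 9332, 10218 and 9746, a 2.35-fold difference (log2FC 1.23, SE 0.0491, adjusted p = 1.5e-09). Per kilobase ITGA6 exceeded ITGB4 4.28-fold, 3.27-fold and 3.65-fold in DMSO and 2.41-fold, 2.12-fold and 2.24-fold in BRL-50481. ITGB1, the common β subunit and the highest of the class per kilobase, went from 39983, 31348 and 34354 to 44489, 42889 and 44605 (log2FC 0.33, SE 0.0703, adjusted p = 0.00135). The ratio of ITGB1 to ITGB4 per kilobase was 15.4, 11.6 and 13.2 in DMSO and 7.53, 6.63 and 7.22 in BRL-50481 (exact permutation p = 0.1, the smallest possible).

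By level per kilobase the β subunits stood in the order ITGB1 (9432), ITGB5 (923), ITGB4 (706), ITGB2 (174), ITGB3 (126), ITGB8, ITGB7 and ITGB6 in DMSO. In BRL-50481, ITGB4 (1656) stood above ITGB5 (1452), and the libraries of these 2 genes did not overlap in either group.

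ITGB5, ITGB3 and ITGB8, which pair with the αv subunit, were higher. ITGB5 went from 3932, 4413 and 3943 normalized counts to 6252, 6629 and 6455 (log2FC 0.66, SE 0.0553, adjusted p = 5.35e-07). ITGB3, whose exons overlap another annotated gene on the same strand, went from 849, 729.8 and 664 to 1126, 1113 and 1152 (log2FC 0.60, SE 0.084, adjusted p = 4.22e-05). The ratio of ITGB5 to ITGB3 per kilobase averaged 7.41 ± 1.06 in DMSO and 7.63 ± 0.293 after BRL-50481 (SD, n = 3 each, exact permutation p = 0.9). ITGB8 was called at 35.3 to 49.6 in DMSO against 70.5 to 88.2 in BRL-50481 (log2FC 0.92, SE 0.19). ITGB6, at 0.980 to 4.09 and 6.04 to 7.75, was not called, but it was without DMSO replicate 3 (adjusted p = 0.0352 in limma). ITGB2, the leukocyte subunit, had 497, 518 and 450.5 normalized counts in DMSO against 734, 712 and 657 in BRL-50481 (log2FC 0.52, SE 0.0812). Of the leukocyte markers listed with it, PTPRC and CD3E were not analysed here, while CD14 did not pass the test and CD68 was higher (log2FC 0.51). The 3 markers that were analysed, ITGB2 itself among them, summed to 4229.8 to 4818 in DMSO against 6052 to 6327 in BRL-50481, and their part in the ITGB2 result was not tested. The α partners of ITGB2 (ITGAL, ITGAM and ITGAX) were not analysed here, and ITGB7 had at most 9.69 normalized counts. DAG1, dystroglycan, a laminin and agrin receptor outside the integrin family, had 4183, 4053 and 3803 against 4289.6, 4271 and 4188 and was not called (log2FC 0.08, interval −0.03 to 0.19), but it was without DMSO replicate 1 (log2FC 0.11) or with quantile normalization (log2FC 0.13).

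**Figure D4:**
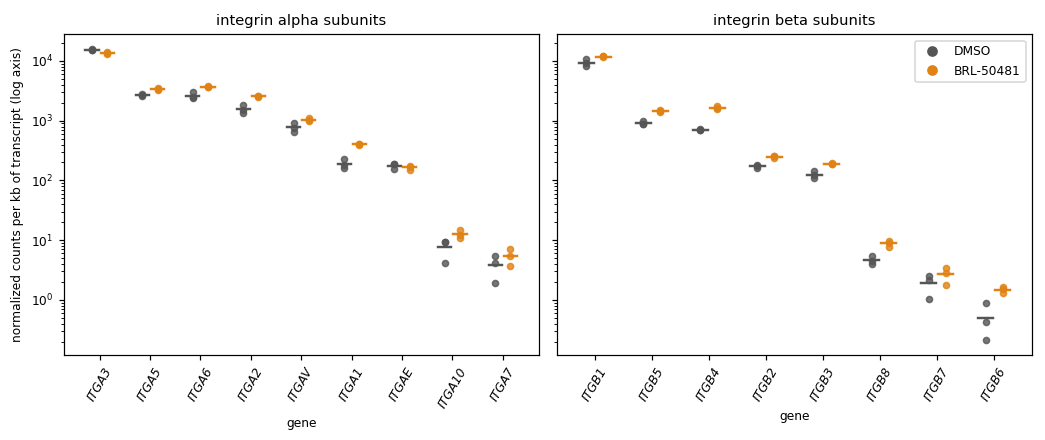
Normalized counts per kilobase of the canonical transcript (log axis) for the integrin α (left) and β (right) subunit genes in the 3 DMSO libraries (grey) and the 3 BRL-50481 libraries (orange), with horizontal bars at the group means. ITGA3 and ITGB1 have the highest levels in both groups, and ITGA3 is the 1 gene whose BRL-50481 points all lie below its DMSO points.

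Matrix and receptor genes were set side by side. Among the 45 matrix genes 29 were higher (64.4%) and 2 lower, and among the 18 receptor genes 12 were higher (66.7%) and 1 lower, with medians of 0.52 and 0.52. Over all genes tested, 28.9% were higher and 29.8% lower. At a mean of 100 normalized counts or more there were 20 higher and 1 lower of 29 matrix genes (median 0.39) and 10 higher and 1 lower of 13 receptor genes (median 0.51). Over all genes at that level, 30.8% were higher and 36.2% lower. No test was made of the difference between matrix and receptor genes. As a share of all normalized counts of a library, matrix genes made up 0.683% to 0.738% in DMSO against 0.865% to 0.910% in BRL-50481, and receptor genes 0.507% to 0.559% and 0.645% to 0.658%. Collagens contributed 0.142% to 0.144% of a DMSO library and 0.184% to 0.190% of a BRL-50481 library. Laminin chains contributed 0.333% to 0.354% and 0.354% to 0.374%, so that the laminin share of DMSO replicate 1 touched the treated range. The totals differed, at 3.25e+07 to 3.28e+07 normalized counts in DMSO against 3.10e+07 to 3.11e+07 in BRL-50481 over all genes tested. A lower total raises every share in BRL-50481. Summed normalized counts of laminin chains overlapped (108792 to 115380 and 109733 to 115889). Those of matrix genes (223809 to 240156 and 267815 to 282178) and receptor genes (166246 to 182030 and 199933 to 203919) did not.

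Transcripts of these genes are long, with a median of 5914 bases against 3167 over all genes tested. Genes with transcripts of at least that length were more often higher than lower after BRL-50481 (42.9% and 21.0% of 2666 genes, median log2FC 0.15). The log2 values of each library were therefore also corrected for their trend on transcript length and GC content. After the correction 39 members were higher and 6 lower, where 28.4% and 37.2% of 14738 genes were, and the members' median was 0.47. ITGB4 (1.21), COL9A2 (1.11), COL17A1 (1.04), COL6A3 (0.94), FN1 (0.88), ITGA1 (0.85) and COL4A5 (0.81) kept most of their log2FC. Of the laminins, 3 were higher and 4 lower after the correction, with LAMB1 (−0.15), LAMB2 (−0.09) and LAMB3 (−0.20) among those called lower. THBS1 went from a log2FC of 0.32 to 0.15 and was still called higher. Other called members lost part of their log2FC and kept the call. ITGAV went from 0.44 to 0.26, COL4A1 from 0.29 to 0.17 and LAMA3 from 0.50 to 0.32. COL12A1 went from 0.69 to 0.47 and ITGA2 from 0.70 to 0.52. Without DMSO replicate 1 and with no correction, 42 members were higher and 5 lower, against 32.0% and 32.4% of all genes, with a median of 0.59. The part that transcript length has in these changes was not tested further.

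**Figure D5:**
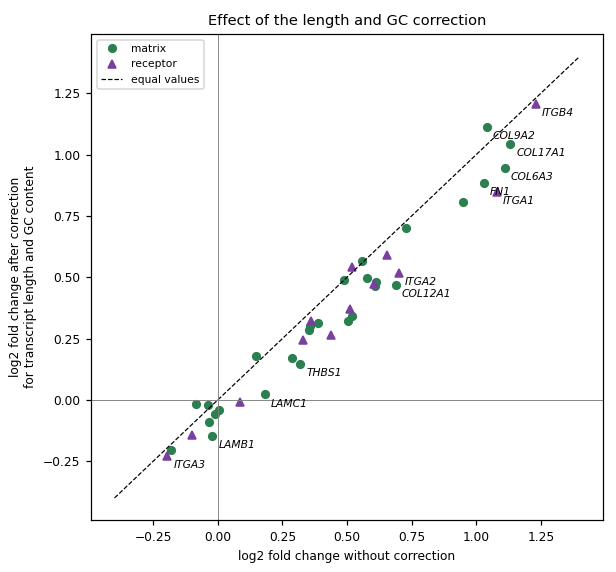
Log2 fold change of BRL-50481 over DMSO before (x axis) and after (y axis) correction of each library for transcript length and GC content, for 41 of the 42 genes whose mean was 100 normalized counts or more, with circles for matrix genes, triangles for receptor genes and a dashed line at equal values. Most points lie under the line, ITGB4 (1.23 and 1.21) stays near it, and LAMC1 (0.18 and 0.02) and THBS1 (0.32 and 0.15) lose much of their value.

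Of 26 genes that process collagen, from a list of 27, 12 were higher (46.2%) and 9 lower (34.6%), against 28.9% and 29.8% of all genes tested, with a median of 0.18. After the length and GC correction 11 were higher and 9 lower, with a median of 0.065, where 28.4% and 37.2% of all corrected genes were. Those with the highest normalized counts were P4HB, a subunit of prolyl 4-hydroxylase (0.01, not called), the lysyl oxidase LOXL2 (0.39) and the galactosyltransferase COLGALT1 (−0.31). SERPINH1, the collagen chaperone HSP47, went from 8516, 9649 and 9789.7 normalized counts to 6811, 7152 and 7189 (log2FC −0.40, SE 0.0569), and the prolyl isomerase PPIB was lower too (−0.57). ADAMTS14, which cleaves the N-propeptide of procollagen, went from 243, 244 and 264 to 731, 789.7 and 742 (log2FC 1.59, SE 0.0812, adjusted p = 8.31e-09). The crosslinking enzyme LOXL4 went from 2911, 3107 and 3039 to 5704, 5996 and 5868 (log2FC 0.96, SE 0.0491). The enhancers of procollagen cleavage PCOLCE2 and PCOLCE were called in opposite directions, PCOLCE2 lower (−0.72) and PCOLCE higher (0.82), the latter at 31.8 to 45.1 normalized counts in DMSO and 57.4 to 81.4 after BRL-50481.

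Adaptors that link integrins to actin were higher or not called. Of 23 tested from a list of 24, 14 were higher (60.9%) and 0 lower, against 28.9% and 29.8% of all genes tested. Their median log2FC was 0.28. Those with the highest normalized counts were talin (TLN1, 0.38), ACTN4 (0.55) and ACTN1 (0.23). At a mean of 100 normalized counts or more, the largest changes were those of FERMT3 (kindlin 3), from 80.4, 102 and 84.8 to 221, 203 and 224, and of the tensins TNS2 (1.04) and TNS3 (0.79). ILK (0.00), FERMT2 (0.00) and VCL (0.11) were not called, although VCL was called higher without DMSO replicate 1 (0.18) and with quantile normalization (0.18). After the length and GC correction 14 adaptors were higher and 3 lower, with a median of 0.19, where 28.4% and 37.2% of all corrected genes were. Of 10 other matrix receptors tested from a list of 11, 3 were higher (30%) and 2 lower (20%), shares near or below those of all genes tested. After the correction 2 were higher and 4 lower, against 28.4% and 37.2% of all corrected genes. CD44, the hyaluronan receptor, was higher (0.47), as were CD47, a thrombospondin receptor (0.18, and 0.049 and not called after the correction), and HMMR, a hyaluronan-binding protein of the mitotic spindle (0.94). SDC1 (syndecan 1, −0.69) and the laminin receptor BCAM (−0.53) were lower, while SDC4 had a mean of 13670.5 normalized counts in both groups.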

How the data were processed

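RNA sequencing of 6 libraries of MDA-MB-231 cells (3 DMSO and 3 BRL-50481) was analysed from 1 table that the authors deposited. Samples were grouped by their titles. The labels describe mRNA selection with oligo-dT, whereas the series text names depletion of ribosomal RNA. According to the methods and the labels, STAR (2.7.1a) placed single-end reads of 76 bases on hg38, HTSeq counted them by gene in reverse-strand mode against UCSC gene models, and DESeq2 (1.28) normalized the counts. The deposited signal is therefore a read count divided by a size factor of its library, and not a raw count, which is why limma and not the authors' DESeq2 gave the main test. The table also holds the authors' mean, log2 fold change, standard error, test statistic and p-values, which were not used. Each value was a whole multiple of 1 read of its library (100% within 0.01 of a whole number), so reads were recovered by division for the count tests, 30750573 to 33446984 per library, and these depths and 3 libraries per group limit what low genes can show. Chi-square per degree of freedom between replicates was 2.63 to 22.1, so no library was a copy of another.

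Genes that reached 4 normalized counts in 3 or more libraries (15246 of 15651) entered limma 3.58.1 (R 4.3.3; lmFit and trended eBayes) on log2(normalized count + 1), and p-values were adjusted by Benjamini-Hochberg over all of them. Fold changes on this scale understate those of low genes. Over all genes this gave 4400 higher and 4546 lower, against 4358 and 4574 with edgeR and 4097 and 4356 with DESeq2. Alternatives were edgeR 4.0.16 and DESeq2 1.42.0 on the recovered reads, other pseudocounts, filters and normalizations, a block on replicate number, omission of each library, and a loess correction (span 0.5) for length and GC content of the canonical transcript of GENCODE release 44 (hg38), to which 14216 genes matched by symbol, 891 by an older one and 544 not at all. The correction without DMSO replicate 1 was added after the data had been seen. The main limma fit, edgeR and DESeq2 were tested on simulated counts, but the length and GC correction was not. Positions and exon overlaps are those of GENCODE, and counting on strand does not separate genes that overlap on the same strand.

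1 laminin chain, counted in the totals, is not reported here. The members and lists were chosen with earlier results of these data known. Values in every library are given for called members with a mean of 100 normalized counts or more that had the 3 largest changes of their role or its 3 highest levels, and for partners in known assemblies. Other members are given by counts or ranges, or by value where their role is described.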

Additional observations from a re-analysis of the deposited data

How the results depend on the processing

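Direction held under every alternative in all 44 called members, and 40 of the 63 members kept both direction and side of the threshold. The calls of COL5A2, COL8A2, COL9A3, ITGA10, LAMA1, LAMA2, LAMA4, LAMB3 and LAMC1 were lost under at least 1 setting. Counts of higher genes among all members, matrix genes and receptor genes stayed within 1.5 times of the main counts. Higher laminin chains numbered 6 in the main fit and 3 with the length and GC correction. Depth and 3 libraries per group limit what can be said of members under 100 normalized counts.

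The count of lower members (3) was 6 with the length and GC correction, 8 with that correction and without DMSO replicate 1, and 2 to 5 with 1 library left out (5 without DMSO replicate 1). Lower matrix genes (2) numbered 1 with quantile normalization and 1 with DESeq2, 5 and 6 with the correction with and without DMSO replicate 1, and 1 to 3 with 1 library left out (3 without DMSO replicate 1). Lower receptor genes (1) numbered 2 with the correction and without DMSO replicate 1, and 1 to 2 with 1 library left out. The median of the matrix genes (0.52) was 0.56 in edgeR and 0.56 in DESeq2, 0.37 and 0.43 with the correction with and without DMSO replicate 1, and 0.48 to 0.58 with 1 library left out. That of the receptor genes (0.52) was 0.50 to 0.64 with 1 library left out, and that of all members (0.52) was 0.47 and 0.46 with the correction and 0.48 to 0.59 with 1 library left out.

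The sign of some uncalled members near 0 turned. With quantile normalization the log2FC was −0.0113 in COL19A1, −0.0545 in COL1A1, 0.0475 in LAMB1, 0.0463 in LAMB2 and 0.0114 in COL6A1. With median centring it was 0.0205 in COL4A2 and 0.00794 in LAMB1. With the correction it was −0.00767 in DAG1 and −0.0404 in COL1A1 (−0.0341 also without DMSO replicate 1). With 1 library left out it ranged from −0.0343 to 0.00908 in COL4A2, −0.15 to 1.06 in COL19A1, −0.0542 to 0.0677 in COL1A1 and −0.051 to 0.0158 in LAMB1. The cause was not tested.

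The replicate numbers did not pair the samples by the criterion used, since same-numbered libraries had correlations of their deviations of 0.121, 0.104 and 0.0514, not all over 0.1, although every library except BRL-50481 replicate 3 correlated best with its own number. With the replicate number as a block, 43 members were higher and 3 lower, COL18A1 and COL24A1 being the added calls (adjusted p = 0.0453 and 0.0451 in limma).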
